A study of Mus musculus with 2 samples.

Results

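The genes described here build and load MHC class I, the cell-surface complex that shows peptides from inside a cell to CD8 T cells. They are the 10 of the 32285 genes in the deposited matrices with the symbols H2-K1, H2-D1, B2m, Tap1, Tap2, Tapbp, Psmb8, Psmb9, Psmb10 and Nlrc5, chosen by name and not by their values. They were followed by cell class, by interferon-stimulated transcript level and by granule transcript level, a readout of neutrophil immaturity. The data are 2 single-cell RNA sequencing libraries of mouse blood, 1 from old animals (24 months) and 1 from young animals (2 months). Both were labelled male, with no genotype, strain or treatment given in the labels used here, and the labels do not say how many animals went into either library. The design text names aging and senescent neutrophils as the subject. Red cells were lysed and live cells positive for CD45, CD11b and Ly6G, a marker of mouse neutrophils, were sorted before capture on the BD Rhapsody microwell system.

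Class I molecules pair a heavy chain, here H2-K1 or H2-D1, with the light chain beta-2-microglobulin, made from B2m. Their peptides are cut by the proteasome, in which the interferon-inducible subunits Psmb8, Psmb9 and Psmb10 can replace the constitutive subunits Psmb5, Psmb6 and Psmb7. The transporter of Tap1 and Tap2 carries peptides into the endoplasmic reticulum, where tapasin, made from Tapbp, holds empty heavy chains to the transporter. Nlrc5 is a transactivator of the class I promoters, and interferons induce most of these genes in many cell types.

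On GRCm38, the build named mm10 in the submitters' notes, 7 of the genes lie on chromosome 17, in or beside the mouse MHC, as placed by the GENCODE M21 annotation. H2-K1 spans chr17:33996017-34000347 on the minus strand and H2-D1 chr17:35262730-35267499 on the plus strand. Psmb9, Tap1, Psmb8 and Tap2 lie next to each other between chr17:34181987 and chr17:34216321, with Psmb9 on the minus strand. The Psmb9 and Tap1 annotations overlap at their starts, so reads there cannot be told apart unless counting used strand, which is not given in the sources used here. Tapbp spans chr17:33915899-33929292 on the plus strand. B2m lies on chromosome 2 (chr2:122147686-122153083, plus strand), Psmb10 on chromosome 8 (chr8:105935735-105938444, minus strand) and Nlrc5 also on chromosome 8 (chr8:94434356-94527272, plus strand).

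The upstream sequences of B2m and H2-K1 are shown because only these genes had such a stretch clear of annotated exons. Both come from RefSeq promoter windows on GRCm38.p6, which matched 8 of the 10 genes, and were kept clear of annotated exons. Capitals mark matches on either strand to an IRF element, GAAA, any 2 bases and GAAA, a spacing bound by interferon regulatory factors, and to TGACG, the core letters of the cyclic AMP response element. The B2m stretch of 149 bases is chr2:122147537-122147685 (plus strand) and the H2-K1 stretch of 150 bases is chr17:34000348-34000497 (minus strand).
B2m: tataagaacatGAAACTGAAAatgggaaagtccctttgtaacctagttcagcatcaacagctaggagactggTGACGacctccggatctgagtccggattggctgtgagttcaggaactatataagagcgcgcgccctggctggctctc
H2-K1: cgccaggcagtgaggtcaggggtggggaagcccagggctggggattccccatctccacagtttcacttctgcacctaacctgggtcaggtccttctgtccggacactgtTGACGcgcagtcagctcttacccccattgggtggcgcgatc
Over windows of 250 bases before and 50 after the start, the IRF element was present for 1 of the 8 genes (B2m) and in 3.44% of all 32851 windows. TGACG was present for 5 of 8 (B2m, H2-D1, H2-K1, Psmb9 and Tap1) and in 20.8% of all windows. CCAAT was present for those 5 and Tapbp, and in 37.4% of all windows. A loose kappa B element, GGG, any 5 bases and CC, was present for the same 5 as TGACG and in 50.8% of all windows. These are matches of letters only, the motifs were searched separately, and the Psmb9 and Tap1 windows overlap. The IRF search took an exact pattern, so elements with other letters or spacing were not counted. A promoter without a match, such as that of H2-K1, may therefore still hold a site bound by interferon regulatory factors. No IRF element or TGACG match overlapped another motif.

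There were 14334 barcodes in the old library and 13599 in the young one. Unique molecular identifiers (UMIs, 1 per captured transcript) summed to 128826996 in old and 69599479 in young, with medians of 7265.5 and 4246 per barcode. After filtering, 13517 old and 12921 young cells remained, and 53 barcodes occurred in both libraries. Xist stood at 210.1 CPM (counts per 1000000 UMIs) in the old library and 160.4 CPM in the young one, and the Y-linked Ddx3y had 967 and 1329 UMIs in old and young. Xist, a transcript of female cells, was thus present in libraries labelled male. Another Y-linked gene, Eif2s3y, had 0 UMIs in both libraries. Neutrophil-like cells numbered 8324 old and 9792 young, and each of their 5 clusters detected 5 to 10 of 10 neutrophil markers. Although cells were sorted on Ly6G, monocyte-like, dendritic cell-like, lymphocyte-like, platelet-like and erythroid-like clusters were present, and they serve here as comparison classes. With 1 library per age there is no replicate check and no test between ages. All ranges in parentheses are exact 95% intervals, which cover counting error only.

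Neutrophils held abundant H2-D1 transcripts but stood low among blood leukocytes for Nlrc5, Psmb10, Psmb8 and H2-K1. In both libraries every other leukocyte class measured stood above neutrophils for those 4 genes. For Tapbp and B2m young neutrophils stood above some lymphocyte classes. Classes with at least 50 cells in a library were compared, which left no classical monocyte-like value for young cells (44 cells) and no NK-like value for old cells (26 cells). The classical monocyte-like class pools cluster 5 (783 old cells) and cluster 17 (235 old cells). Cluster 5 detected 0 of 10 neutrophil markers and cluster 17 detected 7. The part of neutrophil RNA in the levels of this class was not tested.

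**Figure D1:**
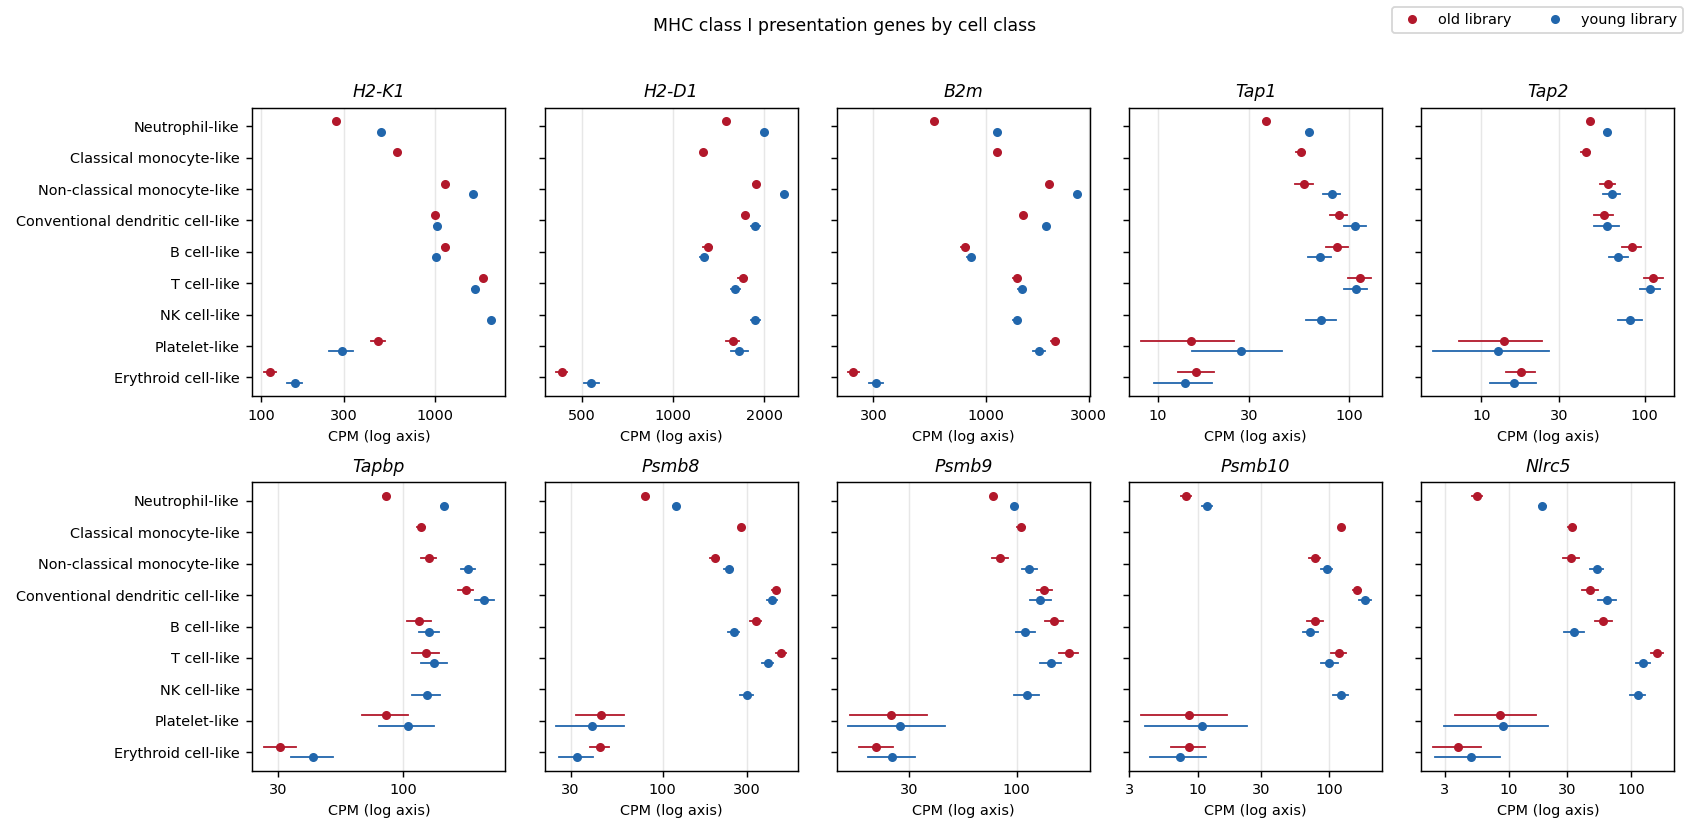
Levels of the 10 genes in each cell class (CPM of UMIs summed over the cells of a class, log axis), old library in red above young library in blue; bars are exact Poisson 95% intervals. Neutrophil-like cells stand left of every other leukocyte class for Psmb10, with 8.09 CPM in the old and 11.7 CPM in the young library, and among the highest classes for H2-D1 in the young library (2001 CPM).

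H2-K1, one of the classical heavy chains, was at 269.9 CPM in old and 488 CPM in young neutrophil-like cells. It reached 1884 CPM in old and 1681 CPM in young T cell-like cells and 2096 CPM in young NK-like cells. B cell-like cells held 1138 CPM in the old library and 1015 CPM in the young library, and erythroid-like cells the least, 113 and 156 CPM in old and young. H2-D1, the other heavy chain, was at 1491 CPM in old and 2001 CPM in young neutrophil-like cells. Old neutrophil-like cells exceeded old B cell-like (1301 CPM) and classical monocyte-like cells (1251 CPM), and young ones exceeded young B cell-like (1265 CPM) and T cell-like cells (1605 CPM). Only the non-classical monocyte-like cells stood above neutrophils for H2-D1 in the young library, at 2316 CPM, and they also led in the old library, at 1878 CPM.

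The balance of the heavy chains therefore differed between classes. For each H2-D1 UMI there were 0.181 H2-K1 UMIs in old (0.178 to 0.184) and 0.244 in young neutrophil-like cells (0.24 to 0.247). The same ratio was 1.11 in old and 1.05 in young T cell-like cells, 1.12 in young NK-like cells, 0.875 in old and 0.802 in young B cell-like cells, and 0.601 in old and 0.709 in young non-classical monocyte-like cells, and 0.481 in old classical monocyte-like cells. Only erythroid-like cells (0.263 old, 0.29 young) and platelet-like cells (0.3 old, 0.175 young) came near the neutrophil ratio. H2-K1 and H2-D1 are close copies of each other and of the H2-Q and H2-T genes, so shared reads may have been assigned to either or dropped, and each of their levels is uncertain to that extent.

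B2m, the common light chain, was at 572 CPM in old and 1131 CPM in young neutrophil-like cells. Non-classical monocyte-like cells had the highest leukocyte levels, 1961 CPM in old and 2643 CPM in young. B cell-like cells were the only leukocytes below neutrophils, and only in the young library (851 CPM), while old B cell-like cells held 802 CPM. Platelet-like cells, with a median of only 856.5 and 860 UMIs per barcode in old and young, held 2100 and 1770 CPM of B2m.

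The inducible proteasome subunits divided. Psmb10, the inducible partner of Psmb7, was at 8.09 CPM in old and 11.7 CPM in young neutrophil-like cells, with intervals that overlapped those of platelet-like cells (8.47 and 10.8 CPM in old and young). Every other leukocyte class held 71.6 CPM or more, up to 163 CPM in old and 187 CPM in young dendritic cell-like cells. Psmb8, the partner of Psmb5, was at 79.4 CPM in old and 118 CPM in young neutrophil-like cells, and other leukocytes were 2.01-fold to 5.92-fold higher. Psmb9, the partner of Psmb6, was at 76.9 CPM in old and 97.5 CPM in young neutrophil-like cells, and its interval overlapped that of old non-classical monocyte-like cells (83 CPM).

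Set against the constitutive partner, the neutrophil pattern differed by subunit. Psmb10 made up 22.2% of Psmb10 and Psmb7 UMIs in old (20.6% to 23.8%) and 26.3% in young neutrophil-like cells (24.4% to 28.3%), against 57.1% to 72.1% in the other leukocyte classes. Psmb9 made up 67.2% of Psmb9 and Psmb6 UMIs in old and 82.8% in young neutrophil-like cells, against 43.6% to 65.8% in the other leukocyte classes, so here neutrophils stood above those classes, although the old interval (66.2% to 68.2%) overlapped that of old T cell-like cells (61.5% to 69.8%). Psmb8 made up 54.8% of Psmb8 and Psmb5 UMIs in old and 71.1% in young neutrophil-like cells, while it ranged over 59.5% to 78.2% in the other leukocyte classes. Transcript shares of this kind do not measure which subunits are in assembled proteasomes.

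**Figure D2:**
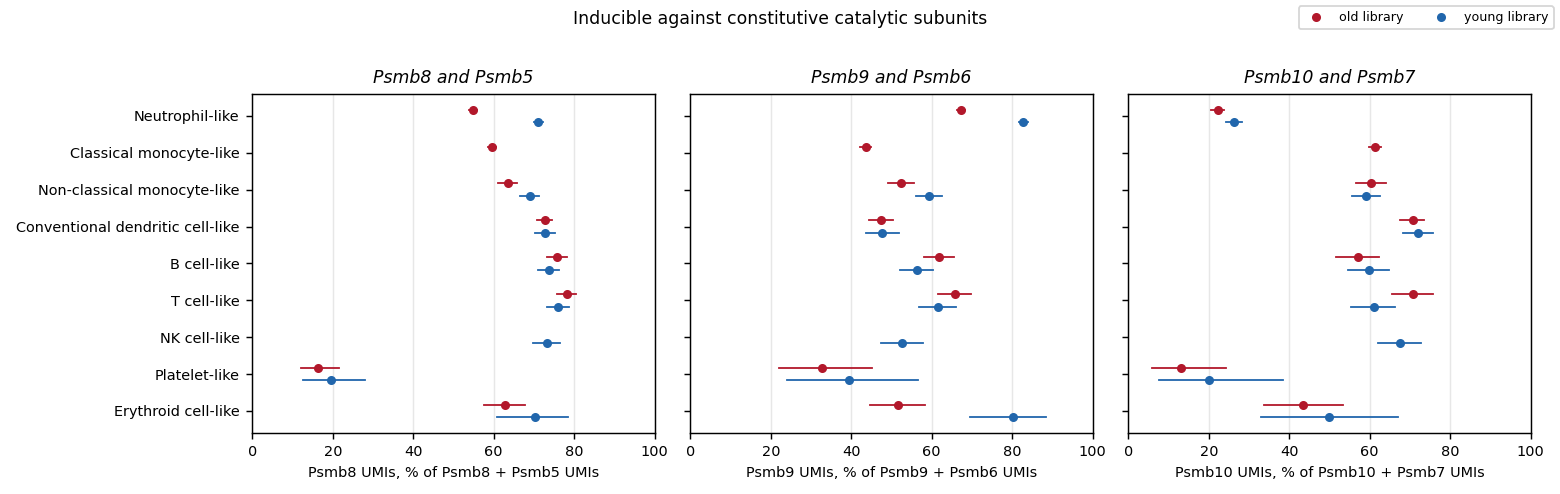
UMIs of each inducible catalytic subunit as a percentage of its UMIs and those of its constitutive partner (horizontal axis), by cell class, old library in red above young library in blue, with Clopper-Pearson 95% intervals. Neutrophil-like cells stand lowest among leukocytes for Psmb10 (22.2% old, 26.3% young) and highest for Psmb9 (67.2% old, 82.8% young).

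Tap1 was at 36.7 CPM in old and 61.4 CPM in young neutrophil-like cells, against 113 and 108 CPM in old and young T cell-like cells. Tap2 was at 46.5 CPM in old and 58.5 CPM in young neutrophil-like cells, a level whose interval overlapped that of young dendritic cell-like cells, also at 58.5 CPM. Tapbp was at 84.8 CPM in old and 148 CPM in young neutrophil-like cells, and was highest in dendritic cell-like cells (183 CPM old, 219 CPM young). The interval of young neutrophil-like cells for Tapbp lay above those of young B cell-like (129 CPM) and NK-like cells (126 CPM) and overlapped that of young T cell-like cells (135 CPM). Nlrc5 showed the widest spread among leukocytes of the old library, and Psmb10 among those of the young one. Nlrc5 was at 5.51 CPM in old and 18.8 CPM in young neutrophil-like cells, against 163 and 125 CPM in old and young T cell-like cells. That is a ratio of 29.6 in the old and 6.64 in the young library, T cell-like over neutrophil-like. For Psmb10 the ratio of dendritic cell-like over neutrophil-like cells was 20.1 in old and 16 in young.

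Counting genes at least 1.5-fold higher than in neutrophil-like cells of the same library, on log2 of CPM plus 1, T cell-like cells had 8 of the 10 genes in old (62.3% of all genes whose mean CPM was 10 or higher) and 6 in young (51.5%). Dendritic cell-like cells had 8 in old (61.8%) and 6 in young (49.2%), non-classical monocyte-like cells 7 in old (61.4%) and 5 in young (47.9%), and B cell-like cells 7 in old (61.7%) and 4 in young (48.7%), with H2-D1 lower in young B cell-like cells (24.2% of genes). Classical monocyte-like cells of the old library had 6 (58.7%) and NK-like cells of the young library 4 (52.1%). The shares of all genes past the limit were thus also large. S100a8 and S100a9 alone took 29.7% of old and 10.7% of young neutrophil UMIs. The CPM of other genes is lower where these take more of the total, and the part of this in the shares was not tested. Erythroid-like cells had 8 of 10 lower in old (90.8%) and 10 of 10 lower in young (96.1%).

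RNA of other cell types was measured by their marker genes. The B cell gene Cd79a stood at 2.3 CPM in old and 3.6 CPM in young neutrophil-like cells, against 1537 and 2191 CPM in B cell-like cells, which implies 0.149% and 0.164% B cell RNA. At that share, B cell RNA would make up at most 1.61% of the level of any of the 10 genes in old (Nlrc5) and 1% in young neutrophil-like cells (Psmb10). The same measure from Hbb-bs gives 0.414% erythroid RNA in old and 0.296% in young.

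In neutrophil-like cells all 10 genes stood lower in the old library, and so did the median gene measured. At the 1.5-fold limit, 5 of 10 were lower in old cells (H2-K1, B2m, Tap1, Tapbp and Nlrc5), where 52.4% of 5745 genes were, and 0 were higher, where 6.96% of genes were. The median over the 10 genes was -0.65 log2 and over all genes -0.62. Psmb8 lay just inside the limit, at a ratio of 0.671 old over young (0.646 to 0.697).

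Nlrc5 was lowest relative to young, with 403 UMIs or 5.51 CPM (4.98 to 6.07) in old and 827 UMIs or 18.8 CPM (17.6 to 20.1) in young cells, a ratio of 0.293 (0.259 to 0.33). B2m followed at 0.505 (0.499 to 0.512) and H2-K1 at 0.553 (0.543 to 0.564), both from 19753 UMIs or more per library. Tapbp stood at 0.572 (0.553 to 0.593) and Tap1 at 0.598 (0.567 to 0.631). The heavy chain H2-D1 kept more of its level, at 0.745 (0.739 to 0.752). Tap2 was at 0.796, Psmb9 at 0.789 and Psmb10 at 0.692 (0.614 to 0.78), the last from 592 old and 514 young UMIs.

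The median gene at 50 CPM or more was itself at -0.69 log2, old over young. Relative to it, only Nlrc5 remained lower (-0.92), as did 12.8% of genes, and 0 of 10 were higher, as were 22.7%. Relative to the median gene H2-K1 was at -0.16 and B2m at -0.30, while H2-D1 was at 0.26, Tap2 at 0.36 and Psmb9 at 0.35. Per cell, old neutrophil-like cells held 5.03 B2m UMIs and young ones 5.08, and 2.37 and 2.19 H2-K1 UMIs, while the median total was 7499.5 UMIs in old and 4073 in young. For these 2 genes the UMIs per cell were thus close in both libraries, while the total per cell was higher in old. Shares of positive cells were counted at equal depth, 1000 UMIs, in cells of an interferon score of 0 to 1, defined further on. There B2m was found in 44% of old and 60.7% of young cells, and H2-K1 in 24% and 33.1%. Fewer positive cells against fewer transcripts per positive cell was not tested. Age, animal and library cannot be told apart.

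The neutrophil-like clusters were each dominated by 1 library, and the sign of the old over young difference varied between them. In cluster 0 (702 old and 5028 young cells) 8 of the 10 genes were above 0 log2, old over young, between -0.09 and 0.58, and in cluster 1 (429 old and 4422 young cells) 8 of 10, between -0.22 and 0.46. The median gene was at -0.12 in cluster 0 and -0.10 in cluster 1. In cluster 3, led by granule genes (2653 old and 133 young cells), H2-K1 was at -0.67 and B2m at -0.65, with the median gene at -0.38. In cluster 2 (4171 old and 102 young cells) Nlrc5 was at -1.51, Tap1 at -0.68 and B2m at -0.60, with the median gene at -0.37. In cluster 11 (369 old and 107 young cells) Nlrc5 was at -1.64 and B2m at -0.59, with the median gene at -0.40. Relative to the median gene of its cluster, B2m was inside the 1.5-fold limit in these 3 clusters, at -0.27, -0.23 and -0.19 in clusters 3, 2 and 11. Nlrc5 stayed beyond it in cluster 2 (-1.14, from 224 old and 12 young UMIs) and cluster 11 (-1.24, from 9 and 6 UMIs). In cluster 3 Nlrc5 was at 0.88, but from 93 old and only 2 young UMIs. Its plain ratio there was known only to within 0.458 to 14.3, so its direction in cluster 3 is not known.

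**Figure D3:**
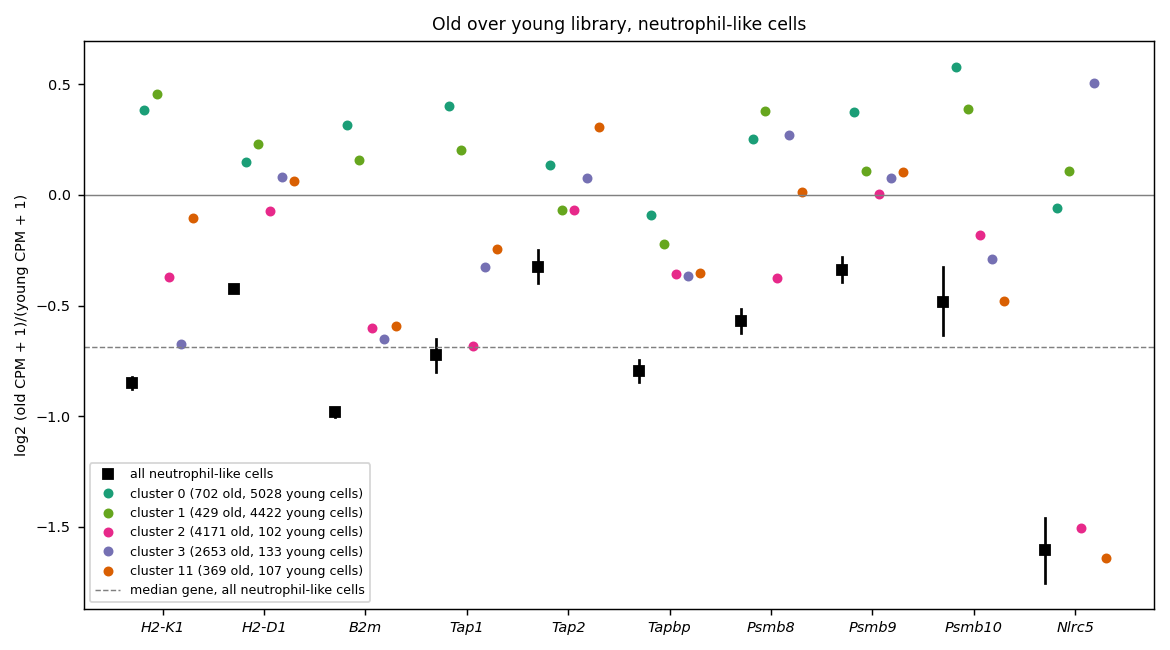
Old over young ratio of each gene in neutrophil-like cells, as log2 of CPM plus 1 (vertical axis), for all such cells (squares, bars are exact 95% intervals of the ratio carried to this scale) and within each of 5 clusters (circles). Squares lie between -1.61 (Nlrc5) and -0.32 (Tap2) around the dashed line of the median gene (-0.69), while circles of clusters 0 and 1 lie between -0.22 and 0.58.

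Depth moved with age as well. Among cells of 3000 to 6000 UMIs, 2431 old (median 4437 UMIs) and 7502 young (median 4063), the median gene was at -0.30. In these cells Nlrc5 was at -0.51, Tapbp at -0.37, B2m at -0.30, H2-K1 at -0.08 and H2-D1 at -0.02. Markers of other cell types, 8 per type, differed between the libraries as well. In neutrophil-like cells the non-classical monocyte markers summed to 100.2 CPM in old and 239 CPM in young, the dendritic cell markers to 410.2 and 782 CPM, the B cell markers to 35.4 and 99 CPM, the T cell markers to 10.6 and 22.6 CPM and the NK cell markers to 1.46 and 15.1 CPM, with Klra8 alone at 0, in old. The classical monocyte markers, at 749.9 CPM in old and 311 CPM in young, the platelet markers, at 151 and 95.6 CPM, and the erythroid markers, at 2507 and 1913 CPM, stood the other way. The part of depth, maturity, other cells and library in the age difference was not tested.

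In the other classes 0 or 1 of the 10 genes passed 1.5-fold in either direction. T cell-like, dendritic cell-like and erythroid-like cells had 0 of 10 past 1.5-fold in either direction, where 9.54% (higher) and 10.6% (lower), 4.36% and 6.67%, and 16.4% and 26.7% of genes were. B cell-like cells had 1 higher (Nlrc5, 8.92% of genes) and 0 lower (10.4%). Non-classical monocyte-like cells had 0 higher (3.69%) and 1 lower (Nlrc5, 7.86%). All 10 genes were below 0 log2, old over young, in that class, with the median gene at -0.17. Inside the limit the ratio there was 0.688 for H2-K1 (0.665 to 0.711), 0.686 for Tapbp (0.621 to 0.758), 0.721 for Psmb9 (0.635 to 0.817) and 0.742 for B2m (0.723 to 0.761). S100a8, a transcript abundant in neutrophils, stood higher in old than in young cells of this class, as given further on. Neutrophil-like cells held less of all 10 genes than this class in both libraries. The part of neutrophil RNA in these ratios was not tested. Platelet-like cells had 1 higher (H2-K1, 12.3%) and 1 lower (Tap1, 43.6%), the Tap1 value resting on 14 old and 15 young UMIs.

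The genes stood higher in neutrophils with more interferon-stimulated transcripts at both ages, Nlrc5, Tap1 and Psmb8 most and H2-D1 least. Cells were scored by the UMIs of 25 interferon-stimulated genes, among them Ifit1, Isg15 and Rsad2 but none of the 10, after thinning each cell to 1000 UMIs. Of the scored neutrophil-like cells, 70% of old and 44.7% of young had a score of 0 to 1, and 68 old and 459 young cells had 10 or more. In young cells all 10 genes increased at each step of the 4 score bins, and in old cells 9 did, the exception being Tap2. How many of all genes increased at each step was not counted, and the median gene moved as well, as given further on. The score is a range without separate groups: 461 old (5.57%) and 1199 young cells (12.3%) scored 4 or 5, next to the limit used further on.

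**Figure D4:**
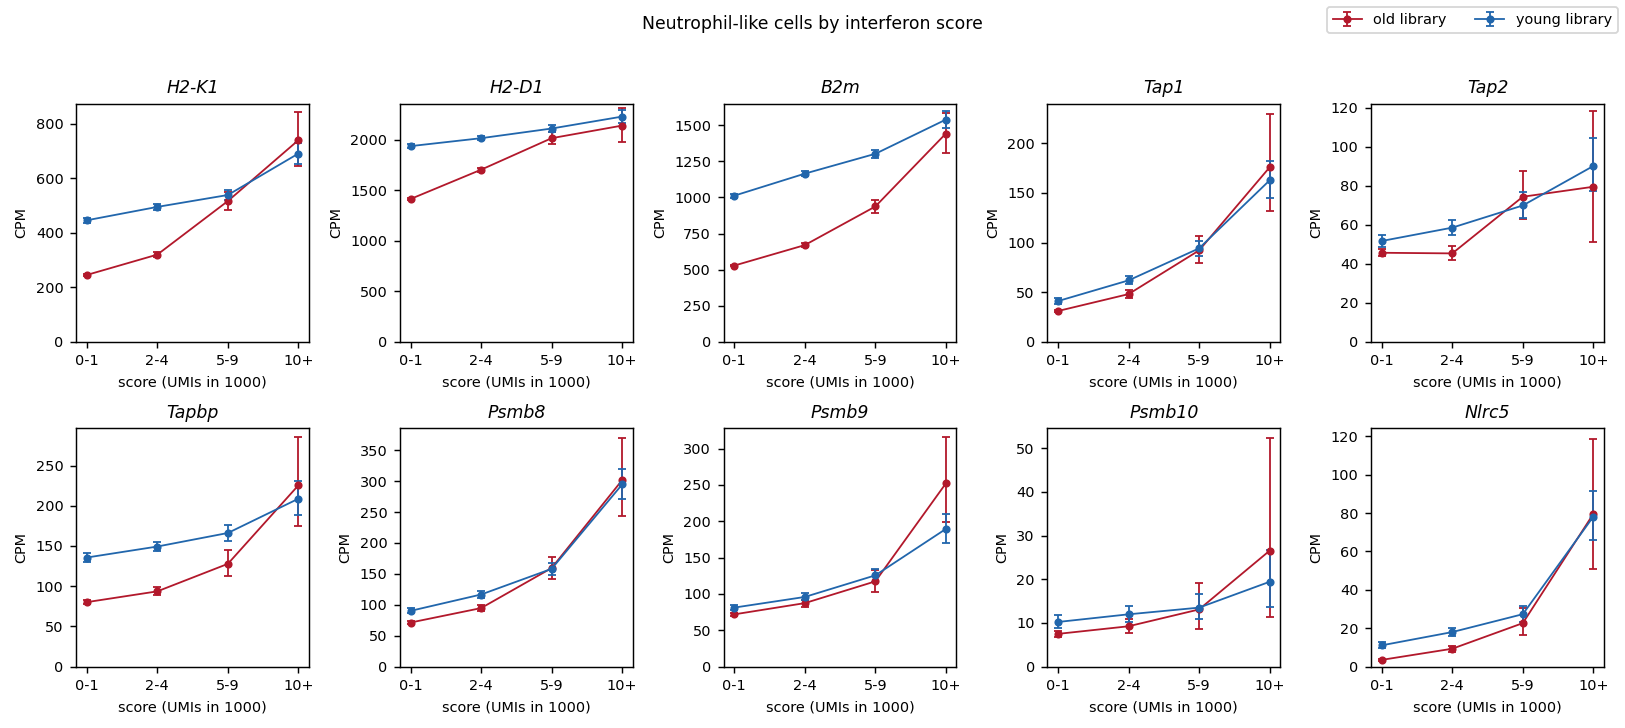
Levels of the 10 genes (CPM, vertical axis from 0) in neutrophil-like cells by interferon score (UMIs of 25 score genes in 1000 UMIs, horizontal axis), old library in red and young in blue, with exact Poisson 95% intervals. Old and young lines are apart at a score of 0 to 1 and overlap in their intervals for all 10 genes at 10 or more, where only 68 old cells were counted. The median gene, old over young, also differed between these bins, at -0.71 log2 for 0 to 1 and -0.26 for 10 or more.

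Nlrc5, the transactivator, was at 3.47, 9.29, 22.6 and 79.6 CPM over the bins 0 to 1, 2 to 4, 5 to 9 and 10 or more in old cells, and at 11.1, 18, 27.3 and 78.1 CPM in young cells. Tap1 was at 31, 48, 92 and 176 CPM in old and at 41, 61.8, 94.1 and 163 CPM in young cells. Psmb8 was at 71.2, 94.6, 159 and 302 CPM in old and at 90.1, 117, 158 and 295 CPM in young cells. For these 3 genes the highest bin of both libraries stood at about the same level, although the lowest bins differed. Psmb9 was at 71.8, 87.3, 117 and 252 CPM in old and at 81.1, 95.7, 125 and 189 CPM in young cells. Psmb10 was at 7.48, 9.22, 13.1 and 26.5 CPM in old and at 10.2, 12, 13.5 and 19.4 CPM in young cells. Even at the highest score Psmb10 thus stayed below the lowest level in any other leukocyte class, 71.6 CPM.

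B2m was at 528, 669.7, 937 and 1442 CPM in old and at 1012, 1165, 1302 and 1539 CPM in young cells, so the span was wider in old cells. H2-K1 was at 245, 319.8, 516 and 739 CPM in old and at 445, 495, 538 and 690.2 CPM in young cells. H2-D1 was at 1412, 1702, 2014 and 2138 CPM in old and at 1935, 2014, 2109 and 2227 CPM in young cells, the narrowest relative span of the 10. The H2-K1 UMIs per H2-D1 UMI went up over the bins, being 0.173, 0.188, 0.256 and 0.346 in old and 0.23, 0.246, 0.255 and 0.31 in young cells.

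At a score of 0 to 1 all 10 genes were lower in old than in young cells with intervals apart. The median over the 10 was -0.43 log2, while the median gene was at -0.71. Over the bins 2 to 4, 5 to 9 and 10 or more, the median over the 10 was -0.36, -0.06 and 0.07. The median gene there was at -0.57, -0.39 and -0.26. In no bin was the share of all genes with intervals apart counted. At 5 to 9 the intervals of 8 genes overlapped, the exceptions being B2m (937 CPM old, 1302 CPM young) and Tapbp (128 CPM old, 166 CPM young). At 10 or more the intervals of all 10 levels overlapped, but the ratio of Psmb9, old over young, was 1.33 (1.03 to 1.71), the one ratio of the 10 whose interval lay clear of 1. The 68 old cells of that bin held 24 Nlrc5 and 8 Psmb10 UMIs, and the Psmb10 ratio was known only to within 0.55 to 2.98.

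Between cells scoring 5 or more and cells scoring 0 to 1, old cells had 9 of 10 genes at least 1.5-fold higher (24.4% of 5366 genes) and 0 lower (5.39%), and young cells had 4 higher (3.2% of 6008 genes) and 0 lower (0.866%). The young genes were Nlrc5 (log2 1.73), Tap1 (1.40), Psmb8 (1.06) and Psmb9 (0.78). In old cells Nlrc5 was at 2.80, Tap1 at 1.70, Psmb8 at 1.31 and H2-K1 at 1.15, and H2-D1 at 0.52 was the one gene inside the limit. The median gene moved as well, by 0.35 in old and 0.02 in young cells, and relative to it 4 genes were higher in old (8.33% of genes) and 4 in young cells (3.01%). Those of the old library were Nlrc5, Tap1, Psmb8 and H2-K1.

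Depth, S100a8 and granule transcripts differed between these old cells. Old cells scoring 5 or more had a median of 4212 UMIs against 8244 in those scoring 0 to 1, S100a8 and S100a9 took 20.6% against 31.1% of UMIs, and the granule score genes 0.239% against 2.07%. In young cells the medians were 3945 and 4155 UMIs. Among old cells of 3000 to 6000 UMIs, 232 scoring high and 1423 scoring low, the median gene was at 0.09, with Nlrc5 at 2.36, Tap1 at 1.28, Psmb8 at 1.13, Psmb9 at 0.83, H2-K1 at 0.72 and Psmb10 at 0.68, while B2m was at 0.43. Among old cells with a granule score of 0 to 9, Nlrc5 was at 2.58 and Tap1 at 1.54. Some markers of other cell types were also higher in the old cells scoring 5 or more than in those scoring 0 to 1. The 8 non-classical monocyte markers summed to 177 against 90.4 CPM, the dendritic cell markers to 624.5 against 386 CPM with Xcr1, Clec10a and Zbtb46 at 0 in the high cells, the B cell markers to 62.9 against 32.9 CPM with Pax5 at 0, and the platelet markers to 213 against 144 CPM. The T cell markers stood at 8.73 against 10.4 CPM and 5 of 8 NK cell markers were at 0. In young cells the same sums were 252 against 228 CPM for non-classical monocytes, 824 against 759.9 CPM for dendritic cells, 103 against 95.6 CPM for B cells and 96.8 against 88.7 CPM for platelets. The part of depth, granule content and other cells in these differences was not tested.

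The subunit balance followed the same direction. The share of Psmb8 in Psmb8 and Psmb5 UMIs was 51.5%, 60.9%, 73.4% and 88.3% over the bins in old and 65%, 70.7%, 77.7% and 86.1% in young cells. The share of Psmb9 was 64.8%, 72%, 83.2% and 89.4% in old and 79.2%, 82.5%, 87.4% and 92.1% in young cells. Psmb5 itself was at 67.1, 60.7, 57.8 and 39.8 CPM in old cells and at 48.6, 48.4, 45.5 and 47.7 CPM in young cells. Psmb6 was at 39, 34, 23.6 and 29.8 CPM in old cells and at 21.3, 20.3, 18 and 16.3 CPM in young cells.

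Cells rich in granule transcripts, the sign of a recently released or immature neutrophil, held less H2-D1 and Nlrc5 than granule-poor cells. Among old cells of 4000 to 12000 UMIs, however, Nlrc5 stood at -0.19 log2, granule-rich over granule-poor, with the median gene at -0.24. The score counted UMIs of Ltf, Camp, Ngp, Chil3, Fcnb, Olfm4 and Orm1 in 1000 UMIs. Of the scored cells, 949 old and 50 young had 30 or more, and 6666 old and 9668 young had 0 to 9. Near the limit, 140 old cells and 1 young cell scored 27 to 32. Tap2 and Psmb10 did not share the direction in old cells.

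H2-D1 was at 1888, 1630, 1199.8 and 807 CPM over scores of 0 to 1, 2 to 9, 10 to 29 and 30 or more in old cells, and at 2034, 1481 and 763 CPM in young cells, whose bin of 10 to 29 held too few cells (17) for a value. In the granule-rich bin of each library H2-D1 was under the level of every other leukocyte class. Nlrc5 was at 8.81, 4.92, 3.16 and 1.74 CPM in old and at 19.4, 6.16 and 1.7 CPM in young cells, the last from 1 UMI. In young cells the ratio of granule-rich over granule-poor Nlrc5 was therefore known only to within 0.00225 to 0.498. H2-K1 was at 337, 269.6, 209 and 187 CPM in old and at 492, 418 and 307 CPM in young cells. B2m was at 681, 562, 461 and 455 CPM in old and at 1146, 795 and 802 CPM in young cells, where the last step was flat. B2m was thus lower in old than in young cells at both ends of the score. The H2-K1 UMIs per H2-D1 UMI stood highest in granule-rich cells, at 0.232 in old and 0.402 in young.

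Psmb9 was at 84.1, 77.5, 68.9 and 68.4 CPM in old cells and Psmb8 at 90.1, 79.2, 66.4 and 68 CPM. Tap2 was at 44.7, 45.1, 47.8 and 50.7 CPM in old cells, and Psmb10 at 8.35, 6.75, 7.78 and 9.25 CPM. Tap1 was at 44.7, 38.1, 30.9 and 24.6 CPM in old cells and Tapbp at 97.3, 86.2, 75.5 and 66.6 CPM.

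**Figure D5:**
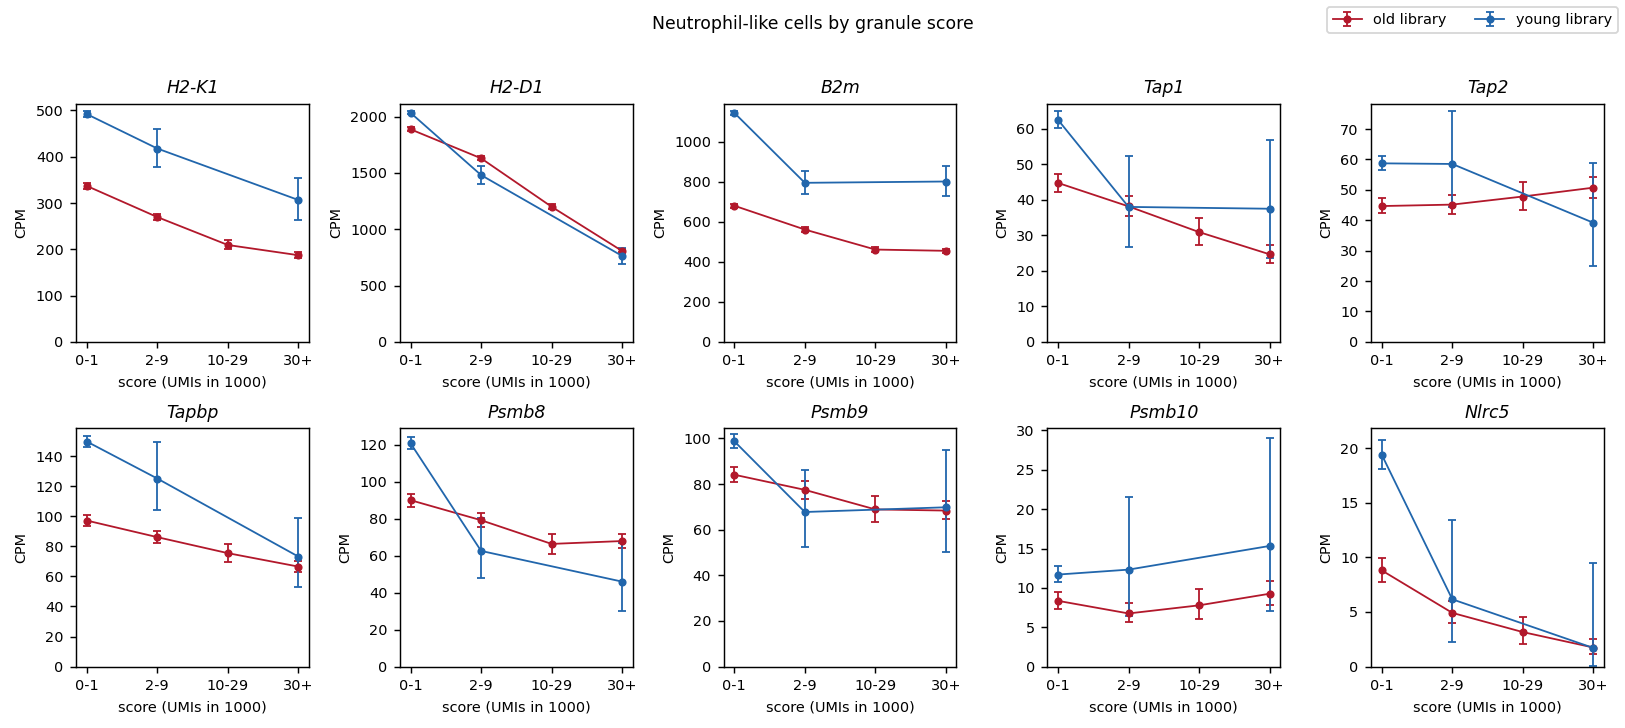
Levels of the 10 genes (CPM, vertical axis from 0) in neutrophil-like cells by granule score (UMIs of 7 granule genes in 1000 UMIs, horizontal axis), old library in red and young in blue, with exact Poisson 95% intervals; the young bin of 10 to 29 (17 cells) is left out. H2-D1 falls to 807 CPM in old and 763 CPM in young cells at 30 or more, while Tap2 in old cells stays between 44.7 and 50.7 CPM.

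Between scores of 30 or more and 0 to 9, old cells had 4 of 10 genes at least 1.5-fold lower (35.7% of 5281 genes) and 0 higher (11.8%), and young cells had 6 lower (47.2% of 5891 genes) and 0 higher (15.6%). The old genes were Nlrc5 (log2 -1.59), H2-D1 (-1.14), Tap1 (-0.75) and H2-K1 (-0.72), and the young ones were these and Tapbp and Psmb8. The median gene was at -0.45 in old and -0.66 in young cells, and relative to it 2 genes were lower in old (H2-D1 and Nlrc5, 16.5% of genes) and 3 in young cells (these and Psmb8, 24%). Relative to it Tap2 and Psmb10 were higher in old granule-rich cells (26.2% of genes) and Psmb10 in young ones (32.9%). Granule-rich cells were deeper, with a median of 16626 against 6636 UMIs in old, and S100a8 and S100a9 took 37.4% against 25.9%. Among old cells of 4000 to 12000 UMIs, 111 granule-rich and 4885 granule-poor, the median gene was at -0.24, H2-D1 at -1.22, and H2-K1 stood at 0.03, Nlrc5 at -0.19 and B2m at 0.02. The classical monocyte markers summed to 1095 against 566 CPM in old and 1105 against 297 CPM in young cells (4 of 8 at 0 in the young granule-rich cells), and the non-classical ones to 56.8 against 123 CPM in old and 78.3 against 241 CPM in young. The part of depth and of other cells in these differences was not tested.

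Other genes of the pathway were taken from lists and counted the same way in neutrophil-like cells. There 52.4% of all genes were lower in old and 6.96% higher. Relative to the median gene 12.8% of all genes were lower and 22.7% higher. A mean of 10 CPM over both libraries counted as measured. Of 20 other class I heavy chain genes 4 were measured. H2-Q10, a secreted class I protein known mostly from liver, was at 109 CPM in old and 498 CPM in young cells, and H2-T24 at 14.3 and 39.8 CPM, both lower in old. H2-T22 (29.3 CPM old, 44.2 CPM young) and H2-T23, the mouse counterpart of HLA-E (132 and 183 CPM), were inside 1.5-fold. Relative to the median gene the same 2 were lower. H2-Q10 was also 17.6 CPM in granule-rich against 156 CPM in granule-poor old cells, and 22.1 against 506 CPM in young cells. It was among the leading genes of cluster 0 and was used in clustering, and its reads may be shared with other H2-Q genes. All 4 were higher in old cells of high interferon score (24.4% of all genes), and 3 of 4, all but H2-Q10, in young cells (3.2%).

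Of the loading chaperones 7 of 8 were measured and 5 were lower in old, among them Hspa5 (64.5 CPM old, 148 CPM young), Canx, the chaperone calnexin (15.6 and 26.8 CPM), and Uggt1, which re-glucosylates glycoproteins for another folding round (19 and 38.1 CPM). Relative to the median gene 0 of the 7 were lower and 1 was higher. Of the trimming peptidases 5 of 10 were measured and 3 were lower, with Lnpep at 276 CPM in old and 546 CPM in young cells; relative to the median gene 0 were lower and 1 was higher. Of the proteasome activator and assembly genes 5 of 9 were measured. Pomp, the maturation factor of the 20S particle, was higher in old (97.5 CPM old, 47.7 CPM young) and Psme4 lower (75.8 and 123 CPM), while the activator subunits Psme1 (84.3 and 74.7 CPM) and Psme2 (53.3 and 50.6 CPM) lay inside the limit. Relative to the median gene 4 of the 5 were higher.

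Among the constitutive catalytic subunits Psmb6 was higher in old, at 37.5 CPM against 20.2 CPM in young cells, and Psmb5 (65.4 and 48 CPM) and Psmb7 (28.3 and 32.8 CPM) were inside 1.5-fold. Of 11 other 20S core genes 0 were higher and 1 was lower, Psma3 (61.2 and 93.2 CPM), and relative to the median gene 9 were higher.

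Of the class I transcriptional regulators 16 of 20 were measured and 14 were lower in old, among them Nfyc (24.7 CPM old, 67 CPM young), Creb1 (77.1 and 189 CPM) and Irf2 (222 and 510.3 CPM); relative to the median gene 3 were lower. Of the interferon receptors and kinases 9 of 10 were measured and 6 were lower, among them Jak1 (273 CPM old, 591 CPM young), Jak2 (61.9 and 174 CPM) and Ifnar1 (31.2 and 71 CPM); relative to the median gene 2 were lower and 1 was higher. Of the interferon score genes 20 of 25 were measured and 18 were lower in old (14 relative to the median gene), and of the interferon gamma-type genes 6 of 17 were measured and all 6 were lower (4 relative to the median gene), with Irgm1 at 9.4 CPM in old and 31.2 CPM in young cells.

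Across the 16 combinations of class and library, the mean standardized level of the 10 genes was highest in old T cell-like cells (0.92) and lowest in old erythroid-like cells (-1.90), with neutrophil-like cells at -0.66 in old and 0.01 in young. The single genes correlated with that mean between r = 0.70 (B2m) and r = 0.96 (Tap1). Of 8063 other genes, the 10 most alike were Srpr (r = 0.98), Patl1, Hltf, Slc25a46, Nono, Hnrnpa2b1, Hnrnpf, Tbk1, Socs4 and Spast (r = 0.97). The points share libraries and depth, and 4 of them are platelet-like or erythroid-like cells, which are low for most genes.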

How the data were processed

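The deposited files hold raw UMI counts per gene and cell barcode, made with Cell Ranger 7.2.0 per the file headers and build mm10 per the submitters' processing notes. The annotation release, the cell calling and the relation of the barcodes to Rhapsody cell labels are not given in the sources used here. Barcodes under 200 genes or over 20% mitochondrial UMIs were dropped. They were clustered with scanpy 1.11.5 and leidenalg 0.10.2 (2000 variable genes, 30 components, 15 neighbours, resolution 0.6) without the 10 genes and both interferon lists, and named from marker lists. A cluster took another class's name where that class led among its 10 top genes by fold with at least 3 markers detected. It was neutrophil-like where no top gene marked another class, a neutrophil list was among the 2 best by mean fold and at least 5 of 10 neutrophil markers were detected, which left unnamed 2 clusters that detected 9 or 10. This rule and the split of one monocyte cluster were chosen after seeing the data. Cluster names are rebuilt here and may differ from the study's. No doublets were removed; an alternative left out neutrophil-like cells in which marker genes of lymphocytes, platelets or erythroid cells took 0.5% of UMIs or more.

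UMIs were summed per class, bin and library and given as CPM with exact Poisson 95% intervals; ratios have exact conditional binomial intervals and shares Clopper-Pearson intervals (scipy 1.17.1, numpy 2.4.6, pandas 2.3.3, Python 3.11.15). Scores were counted in cells thinned to 1000 UMIs, and bins held at least 30 cells. A gene was called past 1.5-fold on log2 of CPM plus 1. The background is all genes averaging 10 CPM or more over both sides, and the median gene is that of genes at 50 CPM or more. The code was tested on simulated data. The 10 genes, lists, scores and tests were chosen with earlier results of these data known. Genes named from other lists are up to 4 per list, by size of the old over young ratio, and the 10 whose profile was most alike; H2-Q10, H2-T22, H2-T23 and H2-T24 are also followed across scores. One item is not reported here. Other choices tried were cell filters, scaling, weighting, pseudocount, clustering resolution, score genes and limits, and depth.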

Additional observations from a re-analysis of the deposited data

Results flagged for a closer look

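H2-K1 differed in sign between classes, old over young. Its log2 ratio was 0.70 in platelet-like cells (471 CPM in old, 290 CPM in young, from 445 and 161 UMIs) and -0.85 in neutrophil-like cells. The difference between the classes was not tested, since each age is 1 library. S100a8, a neutrophil transcript, stood at 23385 CPM in old and 11499.8 CPM in young platelet-like cells, and its part in the result was not tested.

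Nlrc5 also differed in sign. Its log2 ratio was 0.77 in B cell-like cells (59.5 CPM from 154 UMIs in old, 34.3 CPM from 106 UMIs in young), against -1.61 in neutrophil-like cells and -0.68 in non-classical monocyte-like cells (32.4 CPM from 180 UMIs in old, 52.4 CPM from 250 UMIs in young). These differences were not tested either.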

How the results depend on the processing

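No paired analysis was possible because each age is 1 library, and no replicate could be left out. For the counts that follow, shares of all genes were taken only as reported and relative to the median gene, and are given above. The count of the 10 genes lower in old neutrophil-like cells, 5 as reported, was 1 relative to the median gene, 1 with the total taken without abundant genes, 1 as the mean within interferon bins, 3 with equal weight per cell and 3 as the mean within granule bins. It was 0 as the mean within shared clusters and 0 among cells of 3000 to 6000 UMIs, both chosen after seeing the data. The count higher with interferon score in old cells, 9, was 4 relative to the median gene. That in young cells, 4, was 9 for scores of 10 or more against 0, where the share of all genes was not taken. The count lower in granule-rich young cells, 6, was 3 relative to the median gene and 3 without abundant genes. That in old cells, 4, was 2 under each of these, 2 with the second immaturity list and 1 among cells of 4000 to 12000 UMIs, also chosen after seeing the data, where H2-K1 turned to 0.025. That was the 1 sign change of a value past 1.5-fold. With values inside the limit, 15 of 160 single-gene values changed sign between ages, 6 of 150 in old and 6 of 140 in young granule contrasts, and 0 of 150 in either interferon contrast. Relative to the median gene, between ages, H2-D1 turned to 0.26, Tap2 to 0.36, Psmb9 to 0.35, Psmb10 to 0.20 and Psmb8 to 0.12. The cause of these shifts was not tested. Depth limits the statements on Nlrc5 and Psmb10 in small bins most.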

Other observations

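H2-Q10, the non-classical heavy chain gene with the largest difference between ages in neutrophils, was also counted in other classes. It stood at 48.6 CPM in old and 54.6 CPM in young T cell-like cells, 40.2 and 90.7 CPM in non-classical monocyte-like cells, and 26.5 and 160.3 CPM in platelet-like cells. Young neutrophil-like cells held 498 CPM. S100a8, a transcript abundant in neutrophils, stood at 22791 CPM in old and 3278 CPM in young T cell-like cells. It was at 43961 and 6864 CPM in non-classical monocyte-like cells, and at 23385 and 11499.8 CPM in platelet-like cells. S100a8 alone does not show whether neutrophil RNA was present in these classes. The part of any such RNA in their H2-Q10 was not tested.

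An unnamed cluster led by platelet genes such as Clu and Itga2b, with 1255 old and 971 young cells, detected all 10 neutrophil markers. Its H2-D1 level was 1845 CPM in old and 1988 CPM in young cells, and its B2m level 774 and 1127 CPM. H2-K1 stood there at 323 CPM in old and 457 CPM in young cells, Nlrc5 at 6.66 and 11.1 CPM, and Psmb10 at 6.89 and 11.5 CPM. A second unnamed cluster, led by Mt2 and Ghr, with 407 old and 94 young cells, detected 9 of 10 neutrophil markers and held more H2-K1, 770 CPM in old and 1115 CPM in young cells. Psmb10 there was at 40.8 CPM in old and 47.6 CPM in young cells, the young value from 15 UMIs.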
